A study of Mus musculus with 16 samples.

Results

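The cytosolic ribosomal protein genes encode the protein part of the ribosome that translates nuclear-encoded mRNAs in the cytoplasm. They were taken as the rows of the count table whose symbol starts with Rpl, Rps, Rplp or Rpsp, followed by a number and at most the letters a, x or l. They numbered 83 of 23284 gene symbols, of which 52 are named for the large subunit (Rpl and Rplp) and 31 for the small subunit (Rps). The choice used symbols alone and no measured value. It takes in paralogs such as Rpl3l, Rpl22l1 and Rps27l, and it leaves out genes such as Rpsa, Fau and Gnb2l1, which also encode ribosomal proteins under other symbols.

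A ribosome joins a small subunit, which binds and decodes the mRNA, to a large subunit, which forms the peptide bonds. Most of its proteins are present in a single copy, so cells make them in matched amounts, and many of their mRNAs begin with a C followed by a run of pyrimidines, the 5′ terminal oligopyrimidine (TOP) element. Through that element the kinase mTOR and the RNA-binding protein Larp1 set how much of these mRNAs is translated. Some of the proteins have a second gene with a narrower expression, such as Rpl3l in muscle and Rpl10l in testis.

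The series measured poly-A RNA by sequencing in the whole lumbar spinal cord of mice aged 150 days, with 4 animals in each of 4 groups. The cKO_SOD1 group carried the genotype Atg7 cKO together with the SOD1G93A transgene, and the cWT_SOD1 group carried Atg7 cWT with that transgene. The cKO and cWT groups carried Atg7 cKO and Atg7 cWT without the transgene. SOD1G93A is a mutant human SOD1 used to model amyotrophic lateral sclerosis, and Atg7 encodes an enzyme that autophagosome formation requires. The labels' cKO is read here as conditional knockout. The title of the series places the inhibition of autophagy in motor neurons, while the sources used here do not name the driver of the deletion or the promoter of the transgene. The comparisons therefore ask what the transgene and the motor neuron deletion do to the RNA of the whole cord.

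Library totals ran from 14989026 to 20892530 counts, and 15426 genes had enough counts for testing. Atg7 ran from 20.4 to 29.6 CPM (counts scaled by library size) in cKO_SOD1, from 20.8 to 30.3 CPM in cWT_SOD1, from 26.4 to 28.8 CPM in cKO and from 29.7 to 35.1 CPM in cWT. Its difference between cKO and cWT did not pass the test (log2 fold change -0.17 ± 0.12, SE, edgeR adjusted p = 0.9995), so whole-cord RNA did not check the deletion label. Mouse Sod1 ran from 101.2 to 128.8 CPM over all libraries, which does not check the human transgene. Markers of the cord's neurons, astrocytes and oligodendrocytes were present in every group, while Hba-a1 and Hbb-b1 of blood were at 0 counts in all groups. The third blood marker, Alas2, was counted in every group, with blood sums of 1.127 to 10.28 CPM over all libraries. These 0 counts therefore do not show an absence of blood RNA. Within cWT_SOD1, replicate 1 lay closest to the other groups in microglial markers and in ribosomal protein share. Counts that lead a comparison are therefore also given without it.

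The starts of the transcripts were read for the members that the results turn on and for their paralogs, since these genes move together and the TOP element lies there. Each line gives 30 bases of the gene strand from the RefSeq promoter table (GRCm38.p6), from 10 bases before the annotated start to 20 bases from it on. Capitals mark a TOP-like run, defined as a C within 5 bases of the annotated start followed by at least 4 further bases that are C or T.
Rps27l: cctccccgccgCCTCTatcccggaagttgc (chr9:66946076-66946105, plus strand)
Rps27: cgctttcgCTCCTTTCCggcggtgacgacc (chr3:90213629-90213658, minus strand)
Rpl22l1: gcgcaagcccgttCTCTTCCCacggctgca (chr3:28805498-28805527, plus strand)
Rpl22: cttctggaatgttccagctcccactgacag (chr4:152324426-152324455, plus strand)
Rps9: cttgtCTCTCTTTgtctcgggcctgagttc (chr7:3704031-3704060, plus strand)
Rpl39: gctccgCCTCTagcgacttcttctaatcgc (chrX:37085203-37085232, minus strand)
Rpl35: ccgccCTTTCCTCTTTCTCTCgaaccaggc (chr2:39005112-39005141, minus strand)
Rps6: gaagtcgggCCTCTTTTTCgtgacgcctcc (chr4:86857348-86857377, minus strand)
Rplp0: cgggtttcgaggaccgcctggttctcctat (chr5:115559457-115559486, plus strand)
Rps28: cgcgtgcggtctcgcgagagcgaaagtgag (chr17:33824543-33824572, minus strand)
Rps4x: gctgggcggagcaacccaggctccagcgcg (chrX:102189372-102189401, minus strand)
The printed windows of Rpl22, Rplp0, Rps28 and Rps4x held no run, and the relation of the run to the changes was not tested. Rpl22 and Rps27l each have another annotated start, not printed, and neither of those held a run.

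Of the 83 members, 63 had a start in that table. A TOP-like run was found in 29 of the 63, or 46.0%, against 21.2% of the 27025 genes with a start. Among the 7 paralogs described below 2 held it, and among the other members 27 of 56 did. The run was present in 24.6% of 69 mitochondrial ribosomal protein genes. Annotated starts can lie some bases from the real ones, and a window without the run says only that these letters are not in it.

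The members spread over 19 chromosomes, with 14 of them on chromosome 7. Their levels, compared per transcript length in FPKM (fragments scaled by transcript length and library size), differed widely among genes whose proteins the ribosome holds in matched amounts. In cWT cords the highest were Rplp1 of the stalk with 592 ± 42.8 FPKM, Rpl41 with 516 ± 49.1 FPKM, Rps21 with 480 ± 45.6 FPKM and Rps15 with 429 ± 42.1 FPKM (SD, n = 4). The ranges over libraries of neighbours in that order overlapped. The lowest were Rps12 with 9.92 ± 1.53 FPKM, Rpl26 with 5.20 ± 3.66 FPKM, Rps27 with 5.04 ± 1.76 FPKM and Rpl3l with 0.537 ± 0.231 FPKM, and Rpl10l and Rpl39l were listed at 0. In all, 32 members lay over 100 FPKM, 45 between 10 and 100 FPKM and 6 under 10 FPKM. The median level was 64.0 FPKM for large subunit genes and 118 FPKM for small subunit genes.

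The counts of the members held fewer reads than their FPKM values imply. The mean count of a member was a median of 23.5% of the reads that its FPKM value implies from length and library total. Length was that of the gene's longest annotated coding transcript, such as 1232 bases for Rpl34 and 3706 for Rps20. It may differ from the length behind the FPKM value. Too long a transcript raises the implied reads and also changes the share of stretches in common. The part of this choice in the shares below was not tested. The same share was 90.7% over 12601 other genes, 78.7% over 1603 other genes with transcripts up to 1500 bases and 72.6% over 76 mitochondrial ribosomal protein genes. Ribosomal protein genes have many processed pseudogenes, and a median of 47.4% of their 50-base stretches also occurred in annotated transcripts of other genes. The 11 members with under 10% of shared stretches held a median of 75.1% of the implied reads, the 35 with 10 to 50% held 25.02% and the 37 with more held 19.4%. Rps3, with 2.96% shared, held 87.1%, and Rpl35, with 95.1% shared, held 1.86%. Other members went against that order: Rpl34, with 6.93% shared, held 1.27%, and Rpl13a, with 57.4% shared, held 69.7%. Across 82 members the Spearman correlation of the 2 shares was -0.339, a description over genes that share libraries. The sources used here do not say how reads with several matches were counted, and 31 members averaged fewer than 100 counts. Both the counts and the FPKM values are therefore given where they part, and absolute levels of genes with many copies are uncertain.

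Of the members, 79 passed the filter on low counts, 48 of the large and all 31 of the small subunit. Rpl10l had 0 counts in all libraries, Rpl26 had 0 counts although FPKM values were listed for it, and Rpl30 and Rpl39l had too few. In FPKM, 80 members passed the filter.

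The transgene on the Atg7 cWT background went with higher mRNA of most ribosomal protein genes tested, in both subunits. Between cWT_SOD1 and cWT cords 51 of the 79 members tested were higher, 1 was lower and 27 did not pass the test (edgeR quasi-likelihood test, Benjamini-Hochberg adjusted p under 0.05 over all genes). The members' share of calls, 65.8%, was near that of all genes tested, 66.3%. The direction was not that of all genes, of which 33.2% were called higher and 33.1% lower. The median log2 fold change of the members was 0.45, a median fold of 1.36, against 0.01 for all genes tested, and 74 members had a positive value. In cWT_SOD1 libraries the median spread between replicates was a coefficient of variation of 13.4%, against 12.3% in cWT libraries. Without cWT_SOD1 replicate 1, 54 members were higher and 1 lower.

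Both subunits took part. Of the large subunit genes 27 of 48 were higher and 1 lower, at a median log2 fold change of 0.41. Of the small subunit genes 24 of 31 were higher and none lower, at a median of 0.49. The number of large subunit genes with few counts was greater, and the difference between the subunits was not tested. On FPKM values (limma on log2(FPKM + 0.1)) 73 of 80 members were higher and none lower, beside 67.7% of all genes called, 36.4% higher and 31.3% lower. There the medians were 0.49 for the large and 0.55 for the small subunit. The counts of the small over the large subunit genes came to 80.1% to 83.7% in cWT_SOD1 libraries and to 76.8% to 77.8% in cWT libraries. These 2 groups did not overlap. The ratio was 77.3% to 80.7% in cKO_SOD1 libraries, which overlapped cWT_SOD1, and 76.7% to 79.5% in cKO libraries. The most abundant members dominate this ratio.

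**Figure D1:**
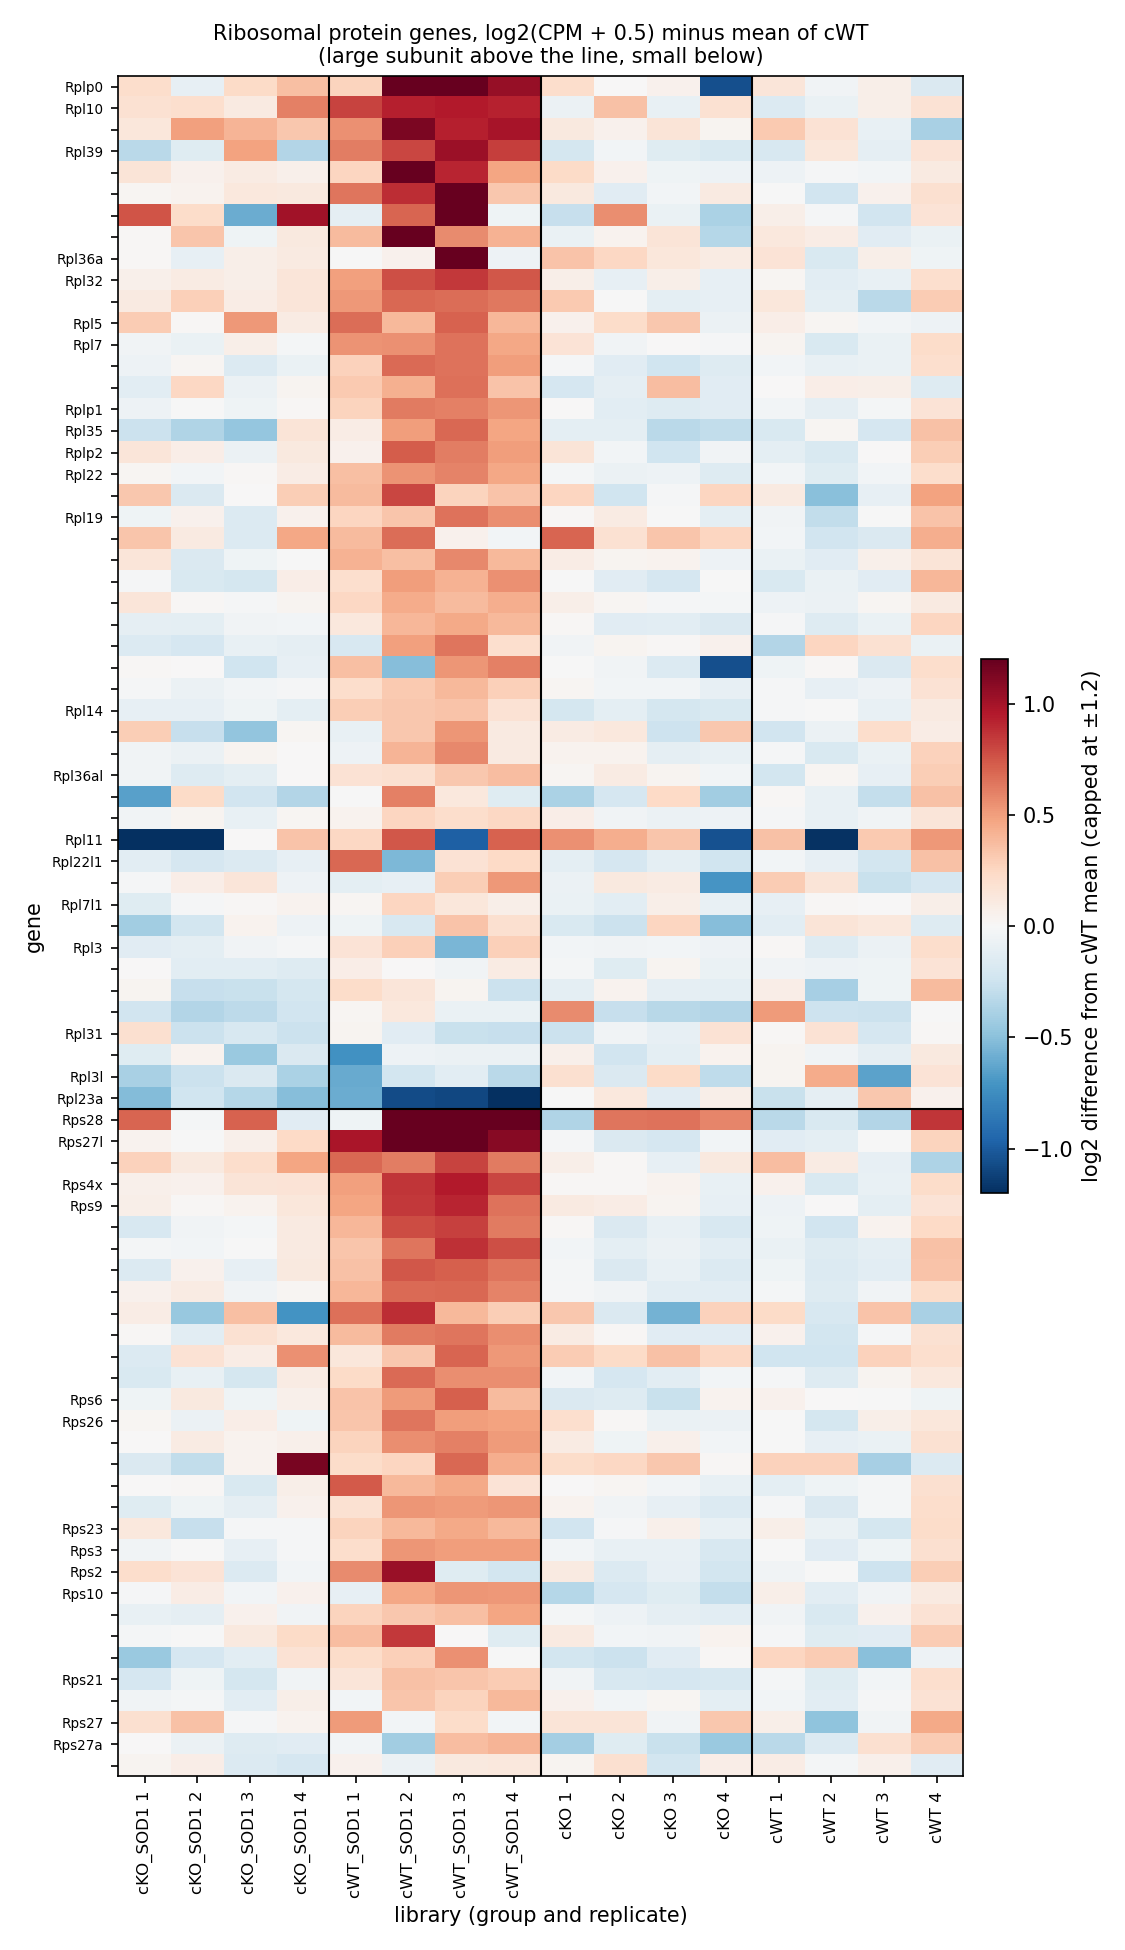
Log2(CPM + 0.5) of the 79 tested members (rows, with those described in the text labelled, sorted by their log2 fold change between cWT_SOD1 and cWT within each subunit) in the 16 libraries (columns), as the difference from the mean of the cWT libraries, with colours capped at ±1.2. The 4 cWT_SOD1 columns are red for most rows of both subunits. The other columns are mostly pale, apart from single cells such as those of Rpl11. Rpl23a is the only row called lower in cWT_SOD1 than in cWT.

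**Figure D2:**
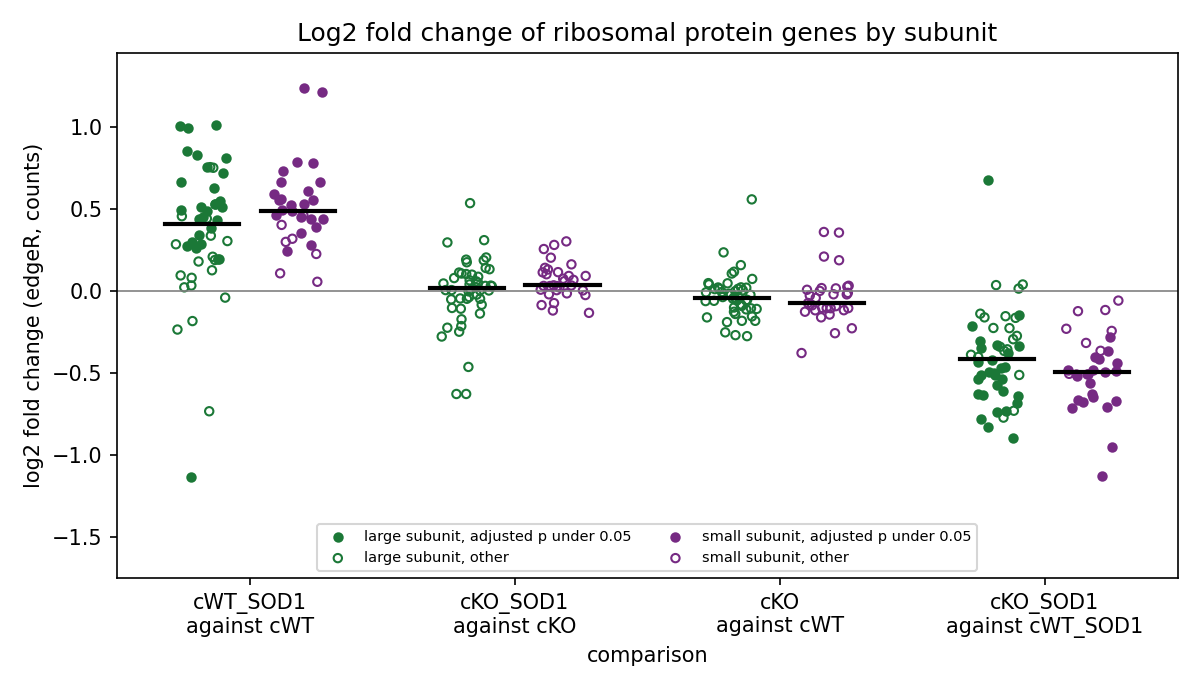
Log2 fold change of each tested member (points, from edgeR) in the 4 pairwise comparisons, large subunit in green and small subunit in purple, filled at an adjusted p under 0.05, with black bars at the medians. The medians are 0.41 and 0.49 for cWT_SOD1 against cWT, 0.01 and 0.03 for cKO_SOD1 against cKO, -0.04 and -0.07 for cKO against cWT, and -0.41 and -0.50 for cKO_SOD1 against cWT_SOD1.

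Among tested members whose groups did not overlap the largest change was that of Rps27l, the paralog of Rps27 that is known as a target of p53 (mm9 chr9:66793925-66797316). It had 22.6, 29.4, 28.1 and 24.5 CPM in cWT_SOD1 libraries, against 10.1, 10.3, 11.2 and 13.6 CPM in cWT libraries. The groups did not overlap, and the log2 fold change was 1.21 ± 0.10 (SE, edgeR adjusted p = 1.90e-08). Rps28, a protein at the mRNA exit of the small subunit (mm9 chr17:33959982-33961443), had the largest log2 fold change of the 79 tested members, 1.24 ± 0.36 (edgeR adjusted p = 0.00614), but with a wide spread. Its values were 6.34, 17.8, 22.4 and 20.3 CPM in cWT_SOD1 libraries, against 5.17, 5.77, 5.06 and 12.4 CPM in cWT libraries. Replicate 1 of cWT_SOD1 and replicate 4 of cWT thus crossed, and the change was 1.51 without the first of these and 1.65 without the second.

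Rps4x, the X-linked S4 protein, rose evenly, with 117, 150, 161 and 145 CPM in cWT_SOD1 libraries against 85.8, 73.1, 77.8 and 96.3 CPM in cWT libraries (log2 fold change 0.78 ± 0.09, SE, edgeR adjusted p = 4.72e-07). Rps9, a protein of the small subunit that helps keep decoding accurate, had 174, 227, 237 and 197 CPM in cWT_SOD1 libraries against 121, 126, 116 and 141 CPM in cWT libraries, a log2 fold change of 0.73 ± 0.08. In both genes every cWT_SOD1 library lay above every cWT library.

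The mRNA entry channel of the small subunit is lined by Rps2, Rps3 and Rps23. Rps3 had 314, 393, 384 and 384 CPM in cWT_SOD1 libraries against 271, 247, 262 and 311 CPM in cWT libraries, and rose by a log2 fold change of 0.44 ± 0.07 (SE, edgeR adjusted p = 5.54e-05). Rps23 rose by 0.44 ± 0.14 (edgeR adjusted p = 0.0131) at only about 2 to 3 CPM. Rps2 did not pass the test on counts (0.40 ± 0.21, edgeR adjusted p = 0.104), and cWT_SOD1 libraries held 30.9, 42.9, 18.7 and 17.7 CPM. Without cWT_SOD1 replicate 3 or 4 it passed, at 0.55 and 0.57. In FPKM Rps2 was 97.5 to 146 in cWT_SOD1 and 69.9 to 86.7 in cWT, with no overlap.

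At the mRNA exit, Rps26 rose beside Rps28, with 33.4, 41.5, 37.7 and 37.2 CPM in cWT_SOD1 libraries against 26.4, 22.8, 27.8 and 29.2 CPM in cWT libraries (log2 fold change 0.50 ± 0.08, SE, edgeR adjusted p = 4.36e-05). Rps6, the substrate of the S6 kinases downstream of mTOR, had 9.41, 10.6, 12.4 and 9.68 CPM in cWT_SOD1 libraries against 7.63, 7.37, 7.28 and 7.03 CPM in cWT libraries, and rose by 0.52 ± 0.10 (edgeR adjusted p = 0.000141). Rps27a, made as a fusion with ubiquitin, was at 4.43 ± 1.24 CPM in cWT_SOD1 and 4.11 ± 0.93 CPM in cWT (SD, n = 4), which did not pass the test on counts. Its FPKM of 50.7 to 63.8 in cWT_SOD1 lay above the 37.0 to 49.97 in cWT.

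Rplp0, Rplp1 and Rplp2 form the stalk of the large subunit, which recruits the translation factors that hydrolyse GTP. All 3 rose. Rplp0 had 103.5, 211, 203 and 178 CPM in cWT_SOD1 libraries against 95.3, 83.7, 90.4 and 76.4 CPM in cWT libraries, with a log2 fold change of 1.01 ± 0.22 (SE, edgeR adjusted p = 0.000706). Its cWT_SOD1 replicate 1 stood close to the cWT libraries, and without it the change was 1.199. Rplp1 had 208, 267, 264 and 251 CPM in cWT_SOD1 libraries against 170, 161, 170 and 194 CPM in cWT libraries, a change of 0.51 ± 0.07. Rplp2 had 21.4, 34.5, 31.9 and 29.4 CPM in cWT_SOD1 libraries against 19.0, 18.2, 20.8 and 25.5 CPM in cWT libraries, a change of 0.49 ± 0.13, where replicate 1 of cWT_SOD1 lay below replicate 4 of cWT.

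Rpl5 and Rpl11 form a particle with the 5S rRNA, which in its free form binds the p53 regulator Mdm2. Rpl5 rose by a log2 fold change of 0.63 ± 0.15 (SE, edgeR adjusted p = 0.00122), with 4.68, 3.75, 4.82 and 3.78 CPM in cWT_SOD1 libraries, all above the 2.92, 2.80, 2.67 and 2.60 CPM in cWT libraries. Rpl11 did not pass the test, and its counts scattered within groups, with 8.74, 12.6, 3.46 and 12.2 CPM in cWT_SOD1 libraries against 9.42, 2.91, 9.17 and 10.7 CPM in cWT libraries. Its FPKM scattered less, at 96.1 to 119 in cWT_SOD1 and 65.0 to 97.1 in cWT.

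Rpl19, Rpl23a, Rpl26, Rpl31 and Rpl35 surround the exit of the tunnel through which the new chain leaves. Rpl19 had 25.3, 26.8, 33.5 and 31.4 CPM in cWT_SOD1 libraries against 20.5, 17.1, 21.1 and 27.0 CPM in cWT libraries and rose by 0.45 ± 0.11 on the log2 scale (SE, edgeR adjusted p = 0.00227). Rpl35 rose by 0.51 ± 0.19 (edgeR adjusted p = 0.0242) and lost the call without cWT replicate 1 or 3 or cWT_SOD1 replicate 3. Rpl31 was at 3.35 ± 0.39 CPM in cWT_SOD1 and 3.81 ± 0.46 CPM in cWT and did not pass the test, while its FPKM of 22.1 to 26.4 in cWT_SOD1 lay above the 17.2 to 21.1 in cWT. Rpl26 could not be tested on counts, and its FPKM was 2.96 to 7.79 in cWT_SOD1 and near 0 to 8.59 in cWT.

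Rpl23a, which docks the signal recognition particle at that exit (mm9 chr11:77994437-77997086), was the only member called lower on counts. It had 3.08, 2.07, 2.04 and 1.86 CPM in cWT_SOD1 libraries against 3.99, 4.51, 6.28 and 5.10 CPM in cWT libraries, without overlap, a log2 fold change of -1.13 ± 0.17 (SE, edgeR adjusted p = 1.31e-05). In FPKM it went the other way, at 104 to 136 in cWT_SOD1 against 81.3 to 106 in cWT, a difference of 0.44 on the log2(FPKM + 0.1) scale (limma adjusted p = 0.000237). Its counts were 7.31% of those its FPKM implied, 85.7% of its 50-base stretches occurred in transcripts of 29 other genes, and the part of this in the opposite directions was not tested. Rpl31, Rpl36 and Rpl38 also had opposite signs in counts and FPKM, among 78 members tested in both. None of these 3 was called on counts.

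The remaining members with the highest values on counts were of the large subunit. Rpl10, which joins the subunit late in its assembly (mm9 chrX:71516155-71518474), had 5.72, 6.26, 6.34 and 6.23 CPM in cWT_SOD1 libraries against 2.66, 2.86, 3.22 and 3.49 CPM in cWT libraries, a log2 fold change of 1.01 ± 0.15 (SE, edgeR adjusted p = 8.97e-06). Rpl32 had 112, 137, 144 and 134 CPM in cWT_SOD1 libraries against 80.7, 72.6, 74.5 and 91.3 CPM in cWT libraries, a change of 0.72 ± 0.08 and the smallest adjusted p among the large subunit genes, 2.91e-07 by edgeR. In both genes the groups stood apart. Smaller called rises included those of Rpl36al (0.26), Rpl14 (0.28) and Rps21 (0.28). Rpl36al lost the call when these 2 groups alone were fitted and without cWT replicate 1 or 3.

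All 52 members called on counts were also called on FPKM, and 21 more were called on FPKM alone, among them Rpl3, Rpl11, Rpl15, Rpl31, Rps2 and Rps27a. Of the members with fewer than 100 counts on average, 11 of 27 were called on counts and 25 on FPKM. At 100 to 1000 counts 22 of 31 were called on counts, and at 1000 or more 19 of 21. The share called on counts was thus higher at greater depth. On counts, tested members with a TOP-like run were called in 17 of 29 cases, at a median log2 fold change of 0.39. Those whose starts held no run were called in 21 of 31 cases, at 0.53. Of all genes tested, 66.3% were called between cWT_SOD1 and cWT, with 33.2% higher and 33.1% lower. Tested members without an annotated start were in neither set, and the difference between the sets was not tested.

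**Figure D3:**
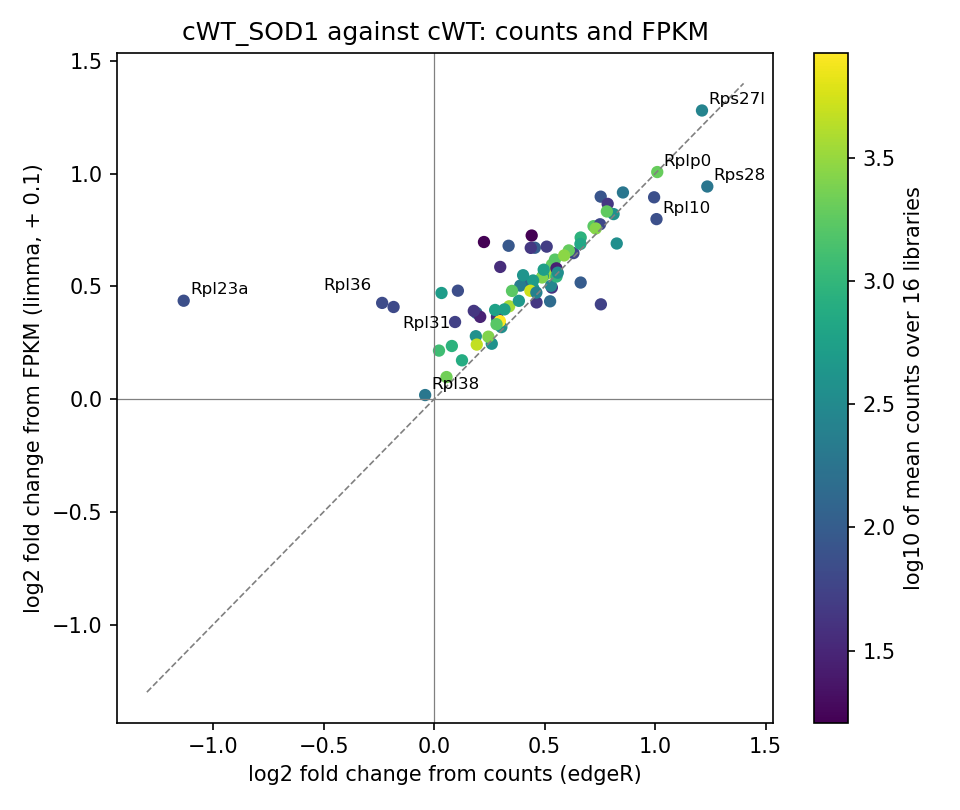
Log2 fold change between cWT_SOD1 and cWT of each member tested in both units, from counts (x axis, edgeR) and from FPKM (y axis, limma on log2(FPKM + 0.1)), coloured by the log10 of its mean count. Most points lie near the dashed line of equality, and Rpl23a stands alone at -1.13 on counts and 0.44 on FPKM.

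The paralogs were compared with their main genes per length, as the log2 ratio of FPKM + 0.1 per library. This was done for the 4 pairs in which both genes averaged at least 0.5 FPKM. With 4 pairs and 4 comparisons 16 ratios were tested by two-sided exact permutation over 70 assignments, whose smallest p is 0.0286. None passed after Benjamini-Hochberg adjustment, at a smallest adjusted p of 0.153. With 4 libraries per group, a ratio could pass only if most of the 16 had reached that smallest p. The adjusted p therefore cannot decide on a single ratio, even one whose groups are fully apart.

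Rpl7l1, a relative of Rpl7, rose by 0.17 on the log2(FPKM + 0.1) scale (limma adjusted p = 0.0127). Its values were 18.7, 20.8, 19.8 and 18.6 FPKM in cWT_SOD1 libraries against 16.1, 17.6, 17.4 and 17.9 FPKM in cWT libraries, also without overlap. Rpl7 had 272, 271, 297 and 266 FPKM in cWT_SOD1 libraries against 183, 163, 163 and 214 FPKM in cWT libraries. The ratio of Rpl7l1 to Rpl7 was 6.89%, 7.68%, 6.67% and 6.99% in cWT_SOD1 libraries, all below the 8.81%, 10.8%, 10.7% and 8.39% in cWT libraries. The difference was -0.45 on the log2 scale (exact permutation p = 0.0286, adjusted p = 0.153). On counts Rpl7 rose by 0.55 ± 0.07 (SE, edgeR adjusted p = 3.50e-06), and Rpl7l1 had 0.13 ± 0.06 (edgeR adjusted p = 0.0859).

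Rpl36al was the more abundant gene of its pair, with 201, 190, 200.3 and 216 FPKM in cWT_SOD1 libraries against 169, 162, 159 and 194 FPKM in cWT libraries. Rpl36a had 34.3, 39.1, 64.6 and 36.2 FPKM in cWT_SOD1 libraries against 24.3, 21.2, 25.6 and 27.5 FPKM in cWT libraries. The ratio was lower in every cWT_SOD1 library, by 0.53 on the log2 scale (exact permutation p = 0.0286, adjusted p = 0.153), and by 0.32 without cWT_SOD1 replicate 3. That library also held 10.4 CPM of Rpl36a on counts, against 2.65 to 2.91 CPM in the other cWT_SOD1 libraries. Without it the log2 fold change of Rpl36a on counts was -0.01, against 0.75 with it.

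Rpl22l1 and Rpl22 had similar mean levels per length, and the spread of Rpl22l1 was widest in cWT_SOD1. Their ratio ran from 69.8% to 135% in cWT_SOD1 libraries and from 95.3% to 126% in cWT libraries. Rpl22l1 had 105, 59.0, 74.5 and 81.2 FPKM in cWT_SOD1 libraries against 67.2, 59.2, 53.2 and 81.6 FPKM in cWT libraries, with overlap. Rpl22 had 77.7, 84.5, 88.8 and 80.4 FPKM in cWT_SOD1 libraries against 55.8, 51.7, 55.8 and 64.8 FPKM in cWT libraries, without overlap. On counts Rpl22 rose by 0.49 ± 0.07 (SE, edgeR adjusted p = 3.96e-06) and Rpl22l1 had 0.19 ± 0.18, which passed the test only when cWT_SOD1 replicate 2 was left out, at 0.39. The log2 ratio of the pair differed by -0.26 (exact permutation p = 0.286, adjusted p = 0.508).

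Rps27l exceeded Rps27 in FPKM in every library. Rps27 had 16.2, 17.8, 4.58 and 2.82 FPKM in cWT_SOD1 libraries against 5.52, 2.95, 4.54 and 7.16 FPKM in cWT libraries, and only 62 counts in the 4 cWT_SOD1 libraries together and 58 in the cWT libraries. A ratio with so shallow a partner was not resolved, at a log2 difference of 0.58 (exact permutation p = 0.429, adjusted p = 0.528).

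The other 3 paralogs were near the limit of detection. Rpl39l, described mainly from testis and tumour cells, had 35 counts summed over the cWT_SOD1 libraries and 0 over the cWT libraries, at least 9.83-fold higher as the 95% lower limit that these sums allow. It was seen in each of the 4 cWT_SOD1 libraries, at 0.265 to 0.671 CPM. The cKO_SOD1 libraries held 6 counts and the cKO libraries 4. Its partner Rpl39 stood far above it, with 231 to 319 FPKM in cWT_SOD1 and 136 to 177 FPKM in cWT. None of the 50-base stretches of Rpl39l occurred in transcripts of other genes.

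Rpl3l, the muscle form of Rpl3, held 27 counts in cKO_SOD1, 23 in cWT_SOD1, 41 in cKO and 42 in cWT, summed over the libraries of each group. The ratio of cWT_SOD1 to cWT was 0.598 (95% interval from the counts 0.344 to 1.02), so a difference was not resolved at this depth. Its main gene Rpl3 had 55.9, 60.8, 33.8 and 60.7 CPM in cWT_SOD1 libraries against 50.03, 44.7, 47.3 and 57.6 CPM in cWT libraries, which did not pass the test (log2 fold change 0.08, edgeR adjusted p = 0.604). Without the low cWT_SOD1 replicate 3 it passed, at 0.24. Rpl10l had 0 counts and was listed at 0 FPKM in all 16 libraries. Intervals and floors cover counting error only.

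**Figure D4:**
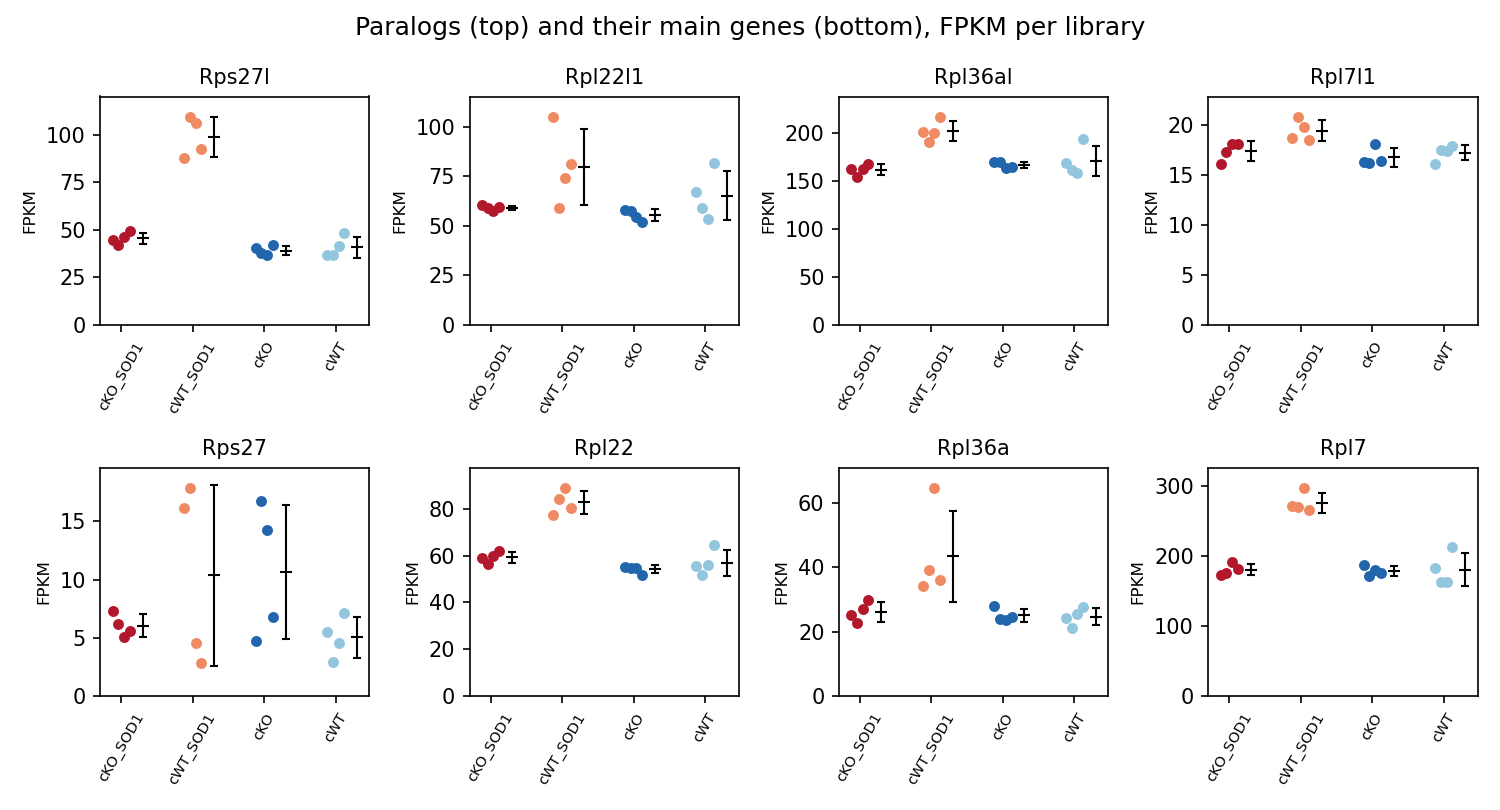
FPKM per library of 4 paralogs (top row) and their main genes (bottom row) in the 4 groups, with the mean and SD as black marks. The cWT_SOD1 libraries of Rps27l (87.5 to 109 FPKM) and of Rpl7l1 (18.6 to 20.8 FPKM) stand above all libraries of the other groups, and 2 cWT_SOD1 and 2 cKO libraries of Rps27 lie above 14 FPKM.

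On the Atg7 cKO background the transgene went with no called ribosomal protein gene. Between cKO_SOD1 and cKO cords 0 of 79 members passed the test by edgeR, 0 by DESeq2 and 0 by limma on FPKM, beside 7.28% of all genes called by edgeR (4.8% higher, 2.48% lower) and 7.82% by limma (6.39% higher, 1.43% lower). At an unadjusted p under 0.05, 2 members passed by edgeR, against 21.2% of all genes tested. The median log2 fold change was 0.01 for the large and 0.03 for the small subunit, and single members ranged from -0.63 to 0.54. Rps27l had 11.6, 11.2, 11.7 and 13.4 CPM in cKO_SOD1 libraries against 11.1, 9.87, 9.70 and 11.0 CPM in cKO libraries, a log2 fold change of 0.20 ± 0.11 (SE, edgeR adjusted p = 0.292).

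The smallest p in that comparison were those of Rpl23a, Rps10 and Rps27l. Rpl23a had 3.28, 4.09, 3.77 and 3.28 CPM in cKO_SOD1 libraries against 4.88, 5.41, 4.43 and 5.17 CPM in cKO libraries, a change of -0.46 ± 0.16 (SE, edgeR adjusted p = 0.0887). Its FPKM was 84.5 to 93.1 in cKO_SOD1 and 82.9 to 92.4 in cKO, with overlap and a difference of 0.04 on the log2(FPKM + 0.1) scale. Rps10, near the mRNA entry of the small subunit, had 11.4, 12.3, 11.3 and 12.03 CPM in cKO_SOD1 libraries against 9.02, 9.97, 10.4 and 9.36 CPM in cKO libraries, a change of 0.28 ± 0.12 (edgeR adjusted p = 0.169). On counts the groups did not overlap in either gene. Each passed the test when these 2 groups alone were fitted, or when cWT_SOD1 replicate 1 was left out of the common fit.

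The deletion without the transgene showed no member past the test either. Between cKO and cWT cords 0 of 79 members were called by edgeR, by DESeq2 or by limma on FPKM. All genes were called in 0.0259% by edgeR (0.00648% higher, 0.0194% lower) and in 0.0136% by limma (0.0068% in each direction). At an unadjusted p under 0.05, 3 members passed by edgeR, beside 3.52% of all genes tested. Medians were -0.04 for the large and -0.07 for the small subunit, and 0.02 and 0.00 without cWT replicate 4. The smallest p was that of Rpl14, a large subunit protein, with 55.5, 59.1, 55.5 and 56.3 CPM in cKO libraries against 63.4, 64.0, 60.3 and 69.2 CPM in cWT libraries (log2 fold change -0.18 ± 0.05, SE, edgeR adjusted p = 0.802). Its groups did not overlap. Rps21 and Rps10 followed, at -0.16 ± 0.07 and -0.26 ± 0.12.

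Among the cords with the transgene the deletion went with lower ribosomal protein mRNA. Between cKO_SOD1 and cWT_SOD1 cords 51 of 79 members were lower, 1 was higher and 27 did not pass the test, beside 58.2% of all genes called, 29.1% in each direction. The median log2 fold change was -0.41 in the large and -0.50 in the small subunit, against -0.01 for all genes tested. Of the large subunit 28 genes were lower and 1 higher, and of the small subunit 23 were lower and none higher. Without cWT_SOD1 replicate 1, 52 members were lower. On FPKM 72 of 80 members were lower and none higher, beside 59.5% of all genes called, 30% lower and 29.5% higher. These libraries of cWT_SOD1 are the same as in the comparison with cWT, so the values of both comparisons share them.

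Rps27l had the lowest value in that comparison, at 11.6, 11.2, 11.7 and 13.4 CPM in cKO_SOD1 libraries against 22.6, 29.4, 28.1 and 24.5 CPM in cWT_SOD1 libraries (log2 fold change -1.13 ± 0.10, SE, edgeR adjusted p = 1.25e-07). Rpl39, a small protein at the tunnel exit, had 6.97, 7.96, 12.6 and 6.81 CPM in cKO_SOD1 libraries against 13.8, 15.8, 18.5 and 16.1 CPM in cWT_SOD1 libraries, a change of -0.90 ± 0.16 (edgeR adjusted p = 0.000106). The groups were apart in both genes. Rplp0 had 80.2 to 111 CPM in cKO_SOD1 libraries against 103.5, 211, 203 and 178 CPM in cWT_SOD1 libraries, a change of -0.83 ± 0.22 (edgeR adjusted p = 0.00406), with replicate 1 of cWT_SOD1 inside the range of cKO_SOD1.

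Rps28 had 11.0, 6.49, 11.1 and 5.97 CPM in cKO_SOD1 libraries against 6.34, 17.8, 22.4 and 20.3 CPM in cWT_SOD1 libraries, a change of -0.95 ± 0.35 (SE, edgeR adjusted p = 0.0288) that lost its call in 5 of the 16 fits that left out a library. Those 5 left out cWT_SOD1 replicate 2, 3 or 4 or cKO_SOD1 replicate 2 or 4. Rpl23a was again the exception, higher in cKO_SOD1 by 0.67 ± 0.17 on counts (edgeR adjusted p = 0.00290) and lower by 0.46 on the log2(FPKM + 0.1) scale. Among the stalk genes Rplp1 fell by 0.54 and Rplp2 fell by 0.43 on the log2 scale, and of the 5S particle Rpl5 (-0.34, edgeR adjusted p = 0.0526) and Rpl11 did not pass the test on counts. Rpl5 passed with the replicate block (edgeR adjusted p = 0.0317) and without cWT_SOD1 replicate 2 or 4 or cKO_SOD1 replicate 3. On FPKM both passed, Rpl5 at -0.59 and Rpl11 at -0.45.

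The ratio of Rpl7l1 to Rpl7 in FPKM was 9.25%, 9.89%, 9.48% and 9.94% in cKO_SOD1 libraries, all above the 6.89%, 7.68%, 6.67% and 6.99% in cWT_SOD1 libraries. It differed by 0.45 on the log2 scale (exact permutation p = 0.0286, adjusted p = 0.153). Summed counts of Rpl39l were 6 in cKO_SOD1 and 35 in cWT_SOD1, a ratio of 0.148 (95% interval from the counts 0.0507 to 0.354).

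The interaction, the transgene effect in cKO minus that in cWT, tests whether the 2 transgene effects differ. It was below 0 in 36 of 79 members, above 0 in 1, Rpl23a, and not called in 42, beside 45% of all genes called, 21.8% below and 23.2% above. The medians were -0.40 for the large and -0.46 for the small subunit. Without cWT_SOD1 replicate 1, 46 members were below 0, and without cWT_SOD1 replicate 3, 30 were. On FPKM 66 of 80 were below 0 and none above, beside 46.1% of all genes called, 23.3% below and 22.8% above. The lowest called values on counts were those of Rps28 (-1.31 ± 0.51), Rps27l (-1.01 ± 0.15) and Rpl10 (-0.80 ± 0.21, SE). Rps28 lost the call under DESeq2, the replicate block and 11 of the 16 fits without a library, while Rps27l and Rpl10 kept it in each fit that was run. Rplp0 had -0.70 ± 0.32 (edgeR adjusted p = 0.0807) and passed without cWT_SOD1 replicate 1, at -0.88, or without cKO replicate 4, at -0.91.

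Taken as a share of all counts, the members held 0.359% to 0.371% in cKO_SOD1 libraries. They held 0.456%, 0.527%, 0.529% and 0.499% in cWT_SOD1 libraries, 0.332% to 0.362% in cKO libraries and 0.333% to 0.404% in cWT libraries. All 4 cWT_SOD1 libraries lay above the other 12. As a share of summed FPKM the values were 2.36% to 2.43% in cKO_SOD1, 2.89% to 3.23% in cWT_SOD1, 2.21% to 2.37% in cKO and 2.19% to 2.61% in cWT. These shares count poly-A RNA only.

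Cell type markers also differed between the groups. They differed between cWT_SOD1 and cWT, where most members rose, and in part between cKO_SOD1 and cKO, where no member was called. The summed level of 6 microglia and macrophage markers was 358 to 380 CPM in cKO_SOD1, 903, 1409, 1391 and 1153 CPM in the cWT_SOD1 replicates 1 to 4, 167 to 228 CPM in cKO and 170 to 189 CPM in cWT. All 6 were called higher in cWT_SOD1 than in cWT and all 6 also in cKO_SOD1 than in cKO. The 4 astrocyte markers summed to 5629 to 6380 CPM in cKO_SOD1, 14380 to 17360 CPM in cWT_SOD1, 2175 to 2751 CPM in cKO and 2259 to 2647 CPM in cWT. The 4 neuron markers found in the table summed to 3517 to 3706 CPM in cKO_SOD1, 1586 to 2478 CPM in cWT_SOD1, 4202 to 4319 CPM in cKO and 4122 to 4585 CPM in cWT. The 6 motor neuron markers summed to 159 to 207 CPM in cKO_SOD1, 128 to 178 CPM in cWT_SOD1, 357 to 417 CPM in cKO and 379 to 498 CPM in cWT, and all 6 were lower with the transgene on both backgrounds. Of the 4 oligodendrocyte markers 3 were lower in cWT_SOD1 than in cWT, with sums of 22040 to 25690 CPM in cKO_SOD1, 17980 to 21580 CPM in cWT_SOD1, 22980 to 25190 CPM in cKO and 22250 to 25470 CPM in cWT. No marker of these 5 lists was at 0 in any group. In the cord as a whole, more cells of a type and more RNA per cell cannot be told apart, and the part of cell composition in the ribosomal protein values was not tested.

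**Figure D5:**
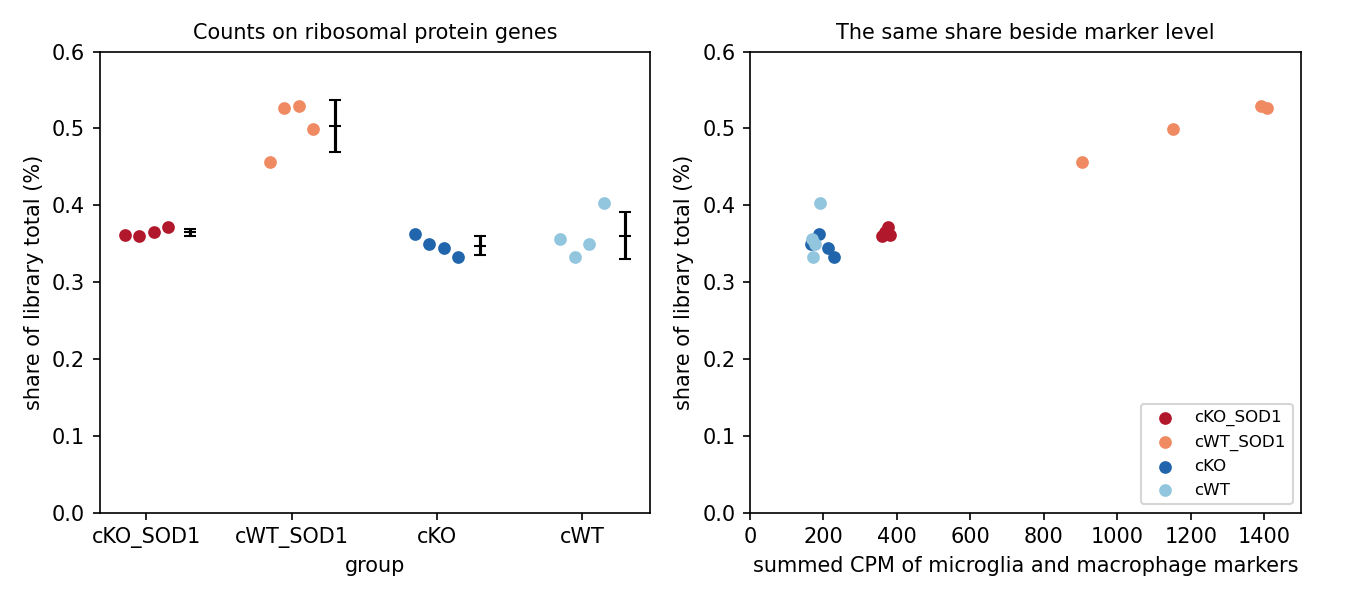
Left, the share of library counts on the 83 members in each library (points) with the mean and SD (black marks). Right, the same share against the summed CPM of 6 microglia and macrophage markers. The 4 cWT_SOD1 libraries lie between 0.456% and 0.529% at 903 to 1409 CPM, above all other libraries on both axes, and the cKO_SOD1 libraries stay at 0.359% to 0.371% with 358 to 380 CPM.

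Of the ribosomal proteins outside the symbol rule, Gnb2l1 (Rack1, a scaffold on the small subunit) and Rpsa (a small subunit protein) were higher in cWT_SOD1 than in cWT. Gnb2l1 had 220, 303, 306 and 294 CPM in cWT_SOD1 libraries against 165, 151, 159 and 186 CPM in cWT libraries (log2 fold change 0.77 ± 0.08, SE, edgeR adjusted p = 3.98e-07). Rpsa rose by 0.25 ± 0.07. Fau, a ubiquitin-like fusion of the small subunit, had 0.20 ± 0.25 and did not pass the test. None of these 3 was called between cKO_SOD1 and cKO.

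Among 17 genes of translation factors and related TOP mRNAs, 9 were higher, 2 lower and 6 not called between cWT_SOD1 and cWT, at a median log2 fold change of 0.14. Pabpc1, which binds the poly-A tail, rose by 1.35 ± 0.08 (SE, edgeR adjusted p = 2.18e-10). The 2 forms of the elongation factor that carries aminoacyl-tRNA to the ribosome moved apart. Eef1a1, the widely expressed form, averaged 1660 ± 263 CPM in cWT_SOD1 and 793 ± 63.1 CPM in cWT (SD, n = 4), whereas Eef1a2, the form of neurons and muscle, averaged 444 ± 78.7 CPM in cWT_SOD1 and 923 ± 26.3 CPM in cWT. Their log2 fold changes were 1.07 ± 0.09 and -1.06 ± 0.09. Between cKO_SOD1 and cKO only Pabpc1 of the 17 was called (0.31 ± 0.08, edgeR adjusted p = 0.0178), and between cKO and cWT none was.

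Of 30 genes of ribosome assembly, 8 were higher, 11 lower and 11 not called between cWT_SOD1 and cWT, at a median log2 fold change of -0.01. Nhp2, of the particles that modify rRNA, rose by 0.40 ± 0.08, and Nop56, of the C/D snoRNA particles, fell by 0.56 on the log2 scale (SE 0.06, edgeR adjusted p = 5.22e-07). Of 13 genes that control ribosomal protein translation, 2 were higher and 6 lower. The higher ones were Eif4ebp1, a repressor of cap-dependent initiation (2.87 ± 0.28), and Myc, a transcription factor of ribosome genes (1.73 ± 0.14). Mtor fell by 0.52 and Larp1 fell by 0.36. Of 76 genes of mitochondrial ribosomal proteins, 7 were higher, 24 lower and 45 not called, at a median of -0.05.

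Between cKO_SOD1 and cWT_SOD1, the translation factors had 10 lower, 2 higher and 5 not called. The assembly genes had 8 lower and 9 higher, and the mitochondrial ribosomal proteins 17 lower and 9 higher. Myc was the gene of the control list called between cKO_SOD1 and cKO, at 1.02 ± 0.15 (SE, edgeR adjusted p = 0.000319). These lists were drawn up with earlier results of these data known, and the differences between them and the ribosomal proteins were not tested.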

How the data were processed

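Poly-A RNA of lumbar spinal cord from 16 mice, 4 per group, was sequenced from TruSeq libraries, per the labels' protocols. The authors deposited raw read counts for 23284 gene symbols and FPKM values for 23699 entries. The submitters' processing notes name bcl2fastq 1.8.4, TopHat2 2.0.4, Cufflinks 2.0.2 and mm9 without roles. The counting tool and its treatment of strand and of reads with several matches are not stated.

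Counts were tested with edgeR 4.0.16 (R 4.3.3; TMM scaling, filterByExpr, quasi-likelihood F-test, 1 fit over all 16 libraries, Benjamini-Hochberg over 15426 genes, threshold 0.05). FPKM values were tested with limma 3.58.1 on log2(FPKM + 0.1) for entries with a mean of at least 0.5. DESeq2 1.42.0, other scalings and leaving out each library were alternatives. Ratios of paralogs were tested by exact permutation (R 4.3.3). Intervals from summed counts and the transcript starts were worked out in Python 3.11.15. The count test was checked on simulated data for cWT_SOD1 against cWT. It recovered 54% of 1.3-fold, 81.6% of 1.5-fold and 98% of 4-fold changes, with 6 false among 164 calls. Changes near 1.3-fold were thus often missed there.

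The members, the paralog pairs and the related lists were chosen with earlier results of these data known. Genes named in the text are the 7 paralog pairs, members with the listed roles, the 4 highest and 4 lowest called members of each comparison (or the 3 with the smallest p where fewer than 3 were called) and ribosomal proteins outside the symbol rule; some of these are not reported here. Chi-square values per gene between libraries of a group were 2.88 to 40.8, so none was a repeat of another. The design text of the series calls the 4 libraries of a group biological replicates. At 14989026 to 20892530 counts per library, members with few counts limit the precision.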

Additional observations from a re-analysis of the deposited data

Results flagged for a closer look

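Among 144 groups of 4 libraries checked, 10 held a library set apart from the other 3 in CPM, where chance gives about 1 in 20. In cKO_SOD1 these were Rpl10 in replicate 4 (4.874 CPM) and Rpl31 in replicate 1 (4.391 CPM). In cWT_SOD1 they were Rpl36a in replicate 3 (10.37 CPM), Rps3 in replicate 1 (313.9 CPM, the low one) and Rps10 in replicate 1 (10.77 CPM, the low one). In cKO they were Rplp1 (173.5 CPM), Rps28 (5.042 CPM, the low one) and Rps21 (86.73 CPM), all in replicate 1, and Rps4x in replicate 4 (77.62 CPM, the low one). In cWT it was Rps28 in replicate 4 (12.41 CPM).

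The transgene effect in cKO cords differed from that in cWT cords by edgeR's interaction term in 16 of 35 named members, near the 45% of all genes. On the log2 scale the large subunit members had -0.80 (Rpl10), -0.74 (Rpl39), -0.59 (Rpl7), -0.47 (Rpl19), -0.43 (Rplp1), -0.39 (Rpl22), -0.37 (Rpl36al) and -0.20 (Rpl14). The small subunit members had -1.31 (Rps28), -1.01 (Rps27l), -0.67 (Rps4x), -0.52 (Rps26), -0.38 (Rps3), -0.36 (Rps6) and -0.25 (Rps21). Rpl23a was the member above 0, at 0.67 on counts, and it was below 0 on FPKM. Of the 16 fits that left out a library, Rps6 and Rps21 lost the call in 12 each, Rps28 in 11, Rpl14 and Rpl23a in 5 each, Rpl36al in 4 and Rpl19 in 3. Rps6 and Rps28 also lost it with DESeq2 and with the replicate block, and Rps6, Rps21 and Rpl14 without the filter on low counts.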

How the results depend on the processing

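Over 32 alternatives, 16 of them leaving out 1 library, 7 of 165 results on single genes reversed, 11 lost a call and 27 gained one in at least 1 alternative. The reversals came from the fits on log2(FPKM + 0.1), log2(FPKM + 1) and unfiltered log2(FPKM + 0.1), and the cause was not tested. In that order Rpl23a had 0.4362, 0.4325 and 0.4362 for cWT_SOD1 against cWT, -0.4625, -0.4586 and -0.4625 for cKO_SOD1 against cWT_SOD1, and -0.3955, -0.3922 and -0.3955 for the interaction. Rpl31 had 0.4084, 0.3919 and 0.4084, then -0.3959, -0.38 and -0.3959, then -0.2985, -0.2871 and -0.2985. Rps27a had -0.348, -0.3421 and -0.348 for the interaction. These fits called 0 members lower in cWT_SOD1 than in cWT and 0 higher in cKO_SOD1 than in cWT_SOD1. For the interaction they called 0 above 0 and 66, 66 and 62 below. Fitting only cKO_SOD1 and cKO called 1 member higher (Rps10) and 1 lower (Rpl23a).

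Leaving out each library gave 47 to 54 members higher and 1 to 2 lower in cWT_SOD1 than in cWT, 0 to 1 in each direction between cKO_SOD1 and cKO, 0 between cKO and cWT, and 47 to 56 lower in cKO_SOD1 than in cWT_SOD1. The interaction had 29 to 46 below 0 and 0 to 1 above. The mean share of counts in cKO_SOD1, cWT_SOD1, cKO and cWT was 0.2042%, 0.2757%, 0.1952% and 0.2033% for the large and 0.1602%, 0.2271%, 0.1518% and 0.1572% for the small subunit. With ribosomal proteins outside the symbol rule added it was 0.3893%, 0.54%, 0.3691% and 0.3836%, and of summed FPKM 2.394%, 3.1%, 2.282% and 2.359%.

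Replicate numbers did not clearly pair the libraries. Same-numbered deviations correlated at -0.303 to 0.347 (median 0.017), and those of different numbers at -0.358 to 0.32 (median 0.002). A correlation over 0.1 was found in 11 of 24 same-numbered pairs and in 22 of 72 other pairs. Of 16 libraries, 7 correlated best with their own number, and a weak pairing was not tested. The replicate block gave 51 higher and 1 lower in cWT_SOD1 than in cWT, 52 lower in cKO_SOD1 than in cWT_SOD1, and 36 below 0 for the interaction. Low counts limit Rpl26, Rpl30, Rpl39l, Rpl3l and Rps27.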
